A study of Rattus norvegicus with 6 samples.

Results

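Erythroid heme and globin genes were examined in synovial tissue of the ankle joints of rats with adjuvant arthritis that had been treated with triptolide or with saline. The 8 genes are Alas2, Hbb, Ahsp, Slc4a1, Epb42, Klf1, Gata1 and Rhag. They were taken by name from the deposited scanner files: every non-control probe whose gene name equals one of them, in any case, on all 6 arrays. This gave 10 probes, 2 each for Slc4a1 and Rhag and 1 for each of the other genes, out of 41012 non-control probes, on an array that names 16338 genes by a settled symbol.

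Red blood cells form in the bone marrow from progenitors that respond to erythropoietin, and the transcription factors GATA1 and KLF1 switch on the genes that fill the cell with hemoglobin. Heme, the iron-bearing pigment, is made along a chain of enzymes whose first step in red cell precursors is run by ALAS2, and it is joined to alpha and beta globin chains, while AHSP keeps free alpha chains soluble until they pair. The band 3 anion exchanger (Slc4a1), protein 4.2 (Epb42) and the Rh-associated glycoprotein (Rhag) belong to the red cell membrane. Mature mammalian red cells have no nucleus, but reticulocytes, the young cells in blood, still carry globin and Alas2 transcripts, so RNA of a tissue with blood in its vessels usually holds some of them. In bulk tissue RNA, more cells of one type and more RNA per cell cannot be told apart.

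All animals were male, 8 weeks old, and had arthritis induced in the same way. They were given 0.1 ml of Freund's complete adjuvant into the peritoneum each day for 18 days. The TP group (3 arrays) received triptolide, a compound from the vine Tripterygium wilfordii, at 0.4 mg/kg daily for 14 days, and the AA group (3 arrays) received saline. No healthy joint was analysed here, so the levels are of treated against untreated arthritis. The labels give no strain and do not say whether each replicate is its own animal; the p-values speak only of the scatter among these arrays, part of which may be technical.

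Because the array reads each gene through a probe of 60 bases, the sequences decide what was measured. The Alas2 and Gata1 probes are shown whole, since Alas2 had the largest difference among the members and Gata1 stayed at the background. Of the Hbb probe the last 30 bases are shown, with the start codon of the beta globin chain in capitals. Positions are on build rn4, per the file headers, for Alas2 at chrX:39810353-39810412 on the plus strand, for Gata1 at chrX:26570758-26571261 on the plus strand, a span longer than the probe itself, and for the shown part of Hbb at chr1:161620134-161620163 on the minus strand.
Alas2 probe: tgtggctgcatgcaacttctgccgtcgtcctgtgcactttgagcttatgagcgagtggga
Gata1 probe: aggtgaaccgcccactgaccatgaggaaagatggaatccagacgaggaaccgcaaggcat
Hbb probe end: actcagaaacagacaccATGgtgcacctga
The Hbb probe lies at the start of a transcript that has near copies. Set without gaps against the first 50 bases of each beta globin transcript in RefSeq (GRCr8), it had 0 mismatches to Hbb over 50 bases. It had 6 mismatches over 45 bases to Hbb-b1 and to Hbb-b2, 6 over 44 to Hbb-bs and 6 over 47 to Hbbl1, an identity of 86.4% to 87.2%. How far the signal of this probe is shared with these copies was not tested, and a value given for Hbb may hold signal of a close copy.

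Promoters of 6 of the 8 members were matched by symbol in the RefSeq table (build GRCr8): Alas2, Hbb, Epb42, Klf1, Gata1 and Rhag. Shown are the 250 bases before the annotated start of the pair of genes with the largest differences and of Klf1, a regulator of both globin and heme genes. Capitals mark the GATA letters AGATAA or TGATAA and the letters CACCC, the core of the element that KLF1 is known to bind, on either strand. The windows are chrX:22895200-22895449 on the plus strand for Alas2, chr1:167663722-167663971 on the minus strand for Hbb and chr19:40158652-40158901 on the minus strand for Klf1.
Alas2 promoter: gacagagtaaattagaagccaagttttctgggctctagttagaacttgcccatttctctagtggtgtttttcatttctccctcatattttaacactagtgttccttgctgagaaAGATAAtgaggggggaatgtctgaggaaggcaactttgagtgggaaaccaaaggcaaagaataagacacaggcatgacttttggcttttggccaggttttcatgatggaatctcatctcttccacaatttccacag
Hbb promoter: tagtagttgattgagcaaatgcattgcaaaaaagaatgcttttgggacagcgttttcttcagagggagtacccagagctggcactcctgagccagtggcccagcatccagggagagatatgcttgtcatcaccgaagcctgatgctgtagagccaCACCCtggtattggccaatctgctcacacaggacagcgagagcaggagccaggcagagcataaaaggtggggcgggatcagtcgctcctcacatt
Klf1 promoter: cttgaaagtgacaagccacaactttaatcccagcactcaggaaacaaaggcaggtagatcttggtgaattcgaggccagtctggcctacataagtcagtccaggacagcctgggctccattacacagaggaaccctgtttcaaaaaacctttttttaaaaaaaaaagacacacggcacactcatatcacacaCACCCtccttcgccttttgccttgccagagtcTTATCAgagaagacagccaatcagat
The Alas2 window holds 1 AGATAA, at -136 to -131 from the start. The Hbb window holds 1 CACCC, at -95 to -91, which is part of the longer CCACACCC, so the searches for these strings overlap. The Klf1 window holds CACCC at -58 to -54 and, on the opposite strand, TGATAA at -26 to -21. AGATAA or TGATAA was found in 3 of the 6 member windows (Alas2, Klf1 and Rhag), against 16.9% of 33469 windows of the same length, and CACCC in 4 of 6 (Hbb, Klf1, Gata1 and Rhag), against 49.2%. CCACACCC was found in 1 of 6 (Hbb), against 2.84%. A match is a string of letters and not a measured binding site, and nothing in these data bears on binding.

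Each array carried 43379 non-control spots, of which 59.6% to 65.1% were well above background, and no spot was saturated. Of all probes, 25776 had a signal well above background on 3 or more arrays and were tested. The slide was not balanced: per the file headers, slide 1 held TP 1 and all 3 AA arrays, and slide 2 held TP 2 and TP 3. AA 2 stood apart, with correlations of 0.922 to 0.944 to the other arrays, which correlated with each other at 0.952 to 0.991. The summed level of 8 skeletal muscle markers was 3325 on AA 2, against 3.05 to 55.4 on the TP arrays and 3.47 and 3.73 on the other AA arrays, in multiples of the array's 75th percentile. Synovial lining and fibroblast markers were present throughout: all 9 on the array were above background, with summed levels of 714 to 791 on TP arrays and 725 to 1133 on AA arrays. Their median difference was -0.39, with 6 of 9 lower in TP, 2 without overlap and 1 at an unadjusted limma p under 0.05, the limb factor Tbx4 at -0.88 (SE 0.19) (p of 0.00313, adjusted p = 0.994).

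No erythroid member passed the adjusted threshold. Each member that could be measured had a higher mean in TP, though the sign of Slc4a1 turned without AA 3 and that of Klf1 without AA 2 or with slide as a block. Of the 8 genes, 5 had a probe above background on all 6 arrays (Alas2, Hbb, Ahsp, Slc4a1 and Klf1), and these passed through every array, not through 1 group. Their mean level was higher in TP in 5 of 5, where 53.9% of all tested probes were higher in TP. The 5 are not separate observations, as Alas2, Hbb, Ahsp and Slc4a1 followed the same arrays (pairwise Pearson r of 0.75 to 0.92). The members' median difference, which is the value of Ahsp, was 0.41 on the log2 scale, against 0.023 over all tested probes. Without AA 3 the members' median was 0.22. With limma and Benjamini-Hochberg adjustment over all 25776 probes, 0 of the 5 had an adjusted p under 0.05, as did 0 of all tested probes (0%; lowest adjusted p = 0.344). Alas2 alone had an unadjusted p under 0.05, and 3.24% of all tested probes did, 2.01% of all being higher in TP. The TP and AA arrays overlapped in 5 of 5 members, while they did not overlap in 8.64% of all tested probes.

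**Figure D1:**
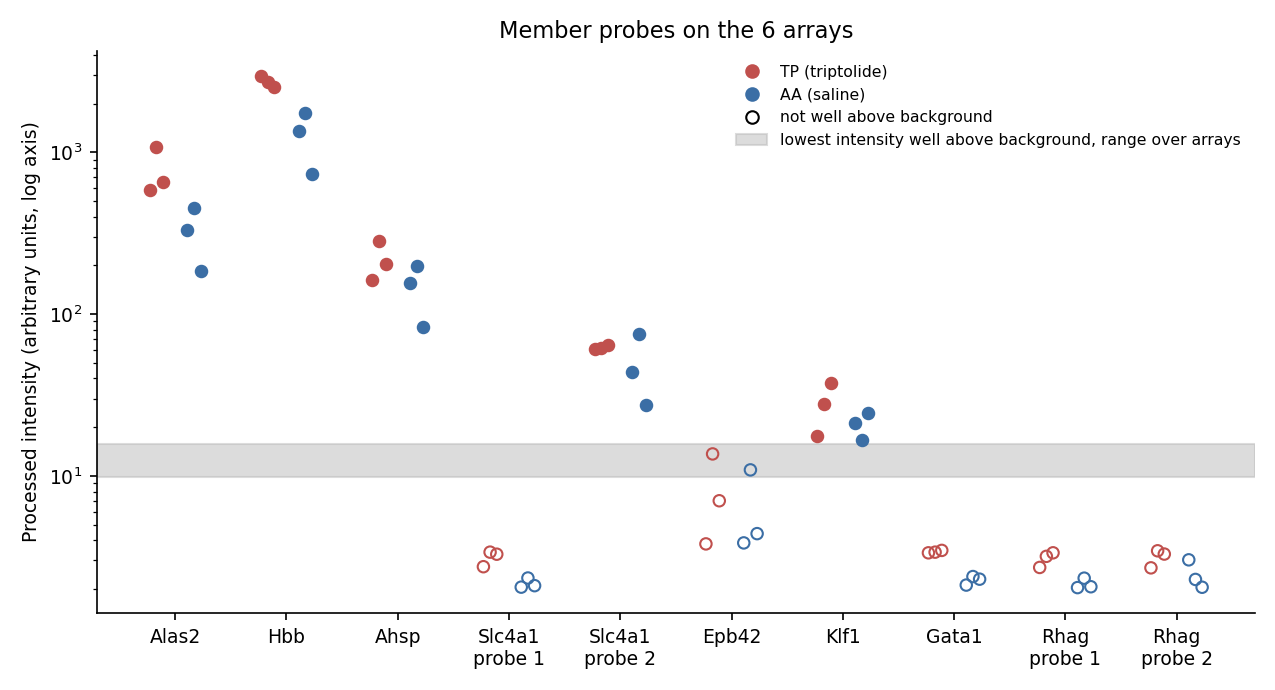
Processed intensity (arbitrary units, log axis) of all 10 member probes on the 3 TP arrays (red) and the 3 AA arrays (blue); open points are not well above background and the grey band spans the lowest intensity well above background on each array, 9.88 to 15.8. Alas2, Hbb, Ahsp, the second Slc4a1 probe and Klf1 lie above the band, and the other 5 probes lie in it or below it.

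Alas2, the erythroid form of the first enzyme of heme synthesis, had the largest difference of the members. Its processed intensity was 580.3, 1070.5 and 652 on TP arrays 1 to 3, against 331, 452 and 186 on AA arrays 1 to 3. Scaled to each array's own 75th percentile, its log2 level was 1.10, 1.65 and 0.54 on TP arrays 1 to 3, against 0.23, 0.63 and -0.79 on AA arrays 1 to 3. TP 1 and TP 2 were above every AA array, and TP 3 lay between AA 2 and AA 1, while AA 3 was the lowest of the 6. The log2 level averaged 1.10 ± 0.55 on the TP arrays and 0.025 ± 0.73 on the AA arrays (SD, n = 3 each). It was higher in TP by 1.07 (SE 0.44), with a 95% interval of 0.0047 to 2.14 by limma, which is 2.10-fold (1.00 to 4.41). The unadjusted p was 0.0493 and the limma adjusted p 0.994, so the difference did not stand clear of the spread between arrays once all probes are counted. A larger positive difference was seen in 0.888% of all tested probes. Leaving out AA 3 brought the difference to 0.67 (unadjusted limma p of 0.127). With slide as a block the difference was 1.08 (unadjusted limma p of 0.170), and within slide 1 it was equal in size (p of 0.154), both resting on TP 1 alone for the treated side.

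Hbb, a beta globin chain of hemoglobin, followed the same arrays. Its processed intensity was 2947, 2730.0 and 2525 on TP arrays 1 to 3, against 1347, 1759.8 and 732 on AA arrays 1 to 3. The log2 level was 3.45, 3.00 and 2.50 on TP arrays 1 to 3, against 2.26, 2.59 and 1.19 on AA arrays 1 to 3. TP 1 and TP 2 were again the highest, AA 2 lay just above TP 3, and AA 3 was the lowest. The mean log2 level was 2.98 ± 0.48 on the TP arrays and 2.01 ± 0.73 on the AA arrays (SD, n = 3 each). The difference of 0.97 (SE 0.42) had a 95% interval of -0.053 to 1.99, or 1.96-fold (0.964 to 3.97), with a limma p of 0.0596 and an adjusted p of 0.994. It was 1.44 with slide as a block (unadjusted limma p of 0.0543) and as much within slide 1 (p of 0.0788). Without AA 3 it was 0.56 (unadjusted limma p of 0.148).

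Ahsp, the chaperone of alpha globin, differed less. Its processed intensity was 162, 284 and 205 on TP arrays 1 to 3, against 155, 198 and 83.2 on AA arrays 1 to 3, from a probe at chr1:187561567-187561626 (rn4, plus strand). Its log2 level was -0.74, -0.27 and -1.13 on TP arrays 1 to 3, against -0.86, -0.57 and -1.95 on AA arrays 1 to 3. TP 2 was highest and AA 3 lowest, with AA 2 and AA 1 inside the range of the TP arrays. Levels averaged -0.71 ± 0.43 on the TP arrays and -1.12 ± 0.73 on the AA arrays (SD, n = 3 each), and the difference of 0.41 (SE 0.41) had an interval of -0.58 to 1.40. The limma p was 0.353 (adjusted p = 0.994). With AA 3 left out, the difference was 0.00040.

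Slc4a1, the band 3 anion exchanger of the red cell membrane, was measured by 1 of its 2 probes, at chr10:91455352-91455411 (rn4, minus strand). That probe read 60.9, 61.7 and 64.7 on TP arrays 1 to 3, against 43.9, 75.8 and 27.5 on AA arrays 1 to 3 in processed intensity. The log2 level was -2.15, -2.47 and -2.79 on TP arrays 1 to 3, against -2.68, -1.95 and -3.54 on AA arrays 1 to 3. AA 2 was the highest of all 6 arrays and AA 3 the lowest, so the AA arrays spanned the whole TP range. Means were -2.47 ± 0.32 on the TP arrays and -2.73 ± 0.80 on the AA arrays (SD, n = 3 each), and the difference of 0.26 (SE 0.42) had an interval of -0.75 to 1.26. The limma p was 0.561 (adjusted p = 0.994). The sign turned to -0.15 without AA 3, and with slide as a block the difference was 0.58. The other Slc4a1 probe, at chr10:91458828-91459400 (a span longer than the probe), was not well above background on any array, with intensities of 2.75, 3.38 and 3.28 on the TP arrays and 2.05, 2.34 and 2.10 on the AA arrays.

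Klf1, the erythroid Krüppel-like factor that activates adult beta globin, was the only member regulator above background. Its intensity was 17.6, 27.8 and 37.4 on TP arrays 1 to 3, against 21.3, 16.6 and 24.6 on AA arrays 1 to 3, from a probe at chr19:24907094-24907153 (rn4, minus strand), close to the dimmest signal that is well above background. The log2 level was -3.94, -3.62 and -3.58 on TP arrays 1 to 3, against -3.72, -4.14 and -3.70 on AA arrays 1 to 3. Here AA 2 was the lowest array and TP 3 the highest, an order unlike that of the other 4 measured members. The mean log2 level was -3.72 ± 0.20 on the TP arrays and -3.86 ± 0.25 on the AA arrays (SD, n = 3 each), and the difference of 0.14 (SE 0.19) had an interval of -0.33 to 0.61. The limma p was 0.497 (adjusted p = 0.994). The sign turned to -0.089 with slide as a block, to the same value on the arrays of slide 1, and to -0.0013 without AA 2.

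**Figure D2:**
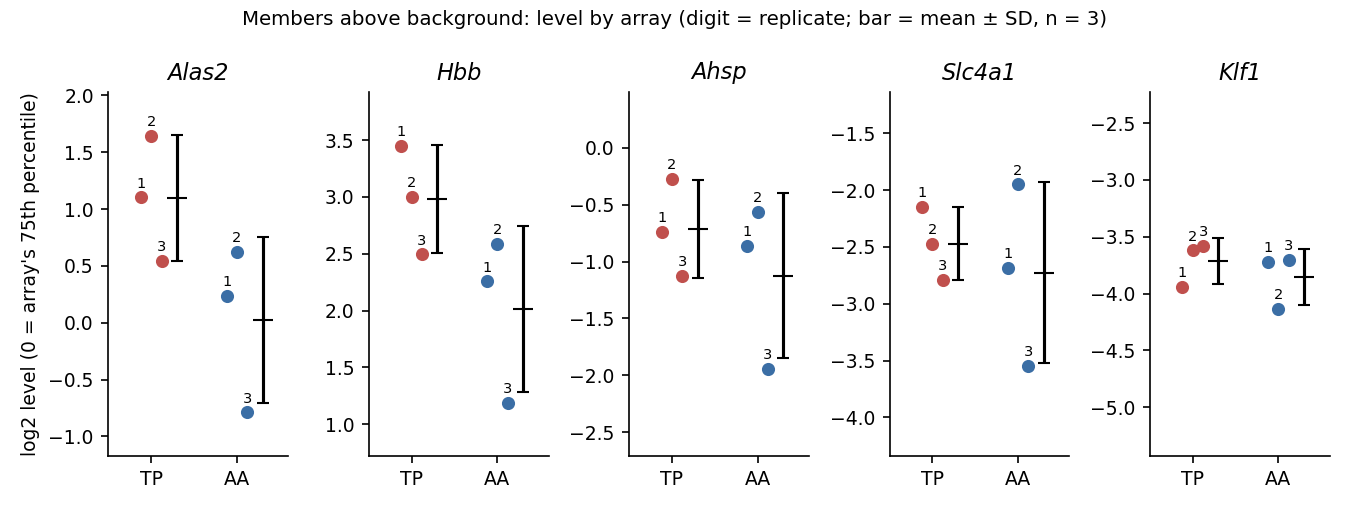
Log2 level of the 5 measured members on each array (0 is the array's 75th percentile), TP left and AA right in each panel, with the replicate number beside each point and the mean ± SD (n = 3) as a bar. AA 3 is the lowest point for Alas2, Hbb, Ahsp and Slc4a1, and each panel has at least 1 AA point inside or above the TP range.

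The 3 remaining members gave no measurable level. Gata1, the master regulator of red cell genes, had intensities of 3.34, 3.38 and 3.46 on the TP arrays and 2.11, 2.39 and 2.30 on the AA arrays. The dimmest spot of any kind read 2.63, 3.16 and 3.11 on TP 1 to 3 and 1.95, 2.21 and 2.00 on AA 1 to 3, so these values sit near the floor of each array and the gap between groups is also in that floor. Rhag, which carries the Rh complex in the membrane, was as dim, with 2.72, 3.18 and 3.35 on the TP arrays and 2.04, 2.33 and 2.06 on the AA arrays for its probe at chr9:15940935-15940994. Its other probe, at chr9:15946466-15947348, read 2.70, 3.44 and 3.29 on the TP arrays and 3.03, 2.29 and 2.05 on the AA arrays. Epb42, which ties band 3 to the membrane skeleton, reached 3.80, 13.7 and 7.02 on the TP arrays and 3.85, 10.9 and 4.40 on the AA arrays from a probe at chr3:107806571-107806630. Each of these 4 probes, and the first Slc4a1 probe, was well above background on 0 arrays, so no fold is given.

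The measured members other than Klf1 shared 1 order within the AA group. AA 2 was highest, AA 1 next and AA 3 lowest for Alas2, Hbb, Ahsp and Slc4a1, and TP 3 was the lowest TP array for all 4. From the lowest to the highest array, Alas2 spanned 2.15-fold in TP and 2.67-fold in AA. Hbb spanned 1.94-fold in TP and 2.63-fold in AA, and Ahsp 1.81-fold in TP and 2.60-fold in AA. The spread inside AA was therefore larger than the TP to AA fold for each of the 3. Of all tested probes, 7.89% had a wider AA range than Alas2 and 8.07% a wider one than Hbb. As a description over 6 arrays that share slides and groups, the level of Alas2 followed the mean of the other measured members with Pearson r of 0.949. Hbb and Ahsp each had r of 0.919, Slc4a1 0.784 and Klf1 -0.31.

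**Figure D3:**
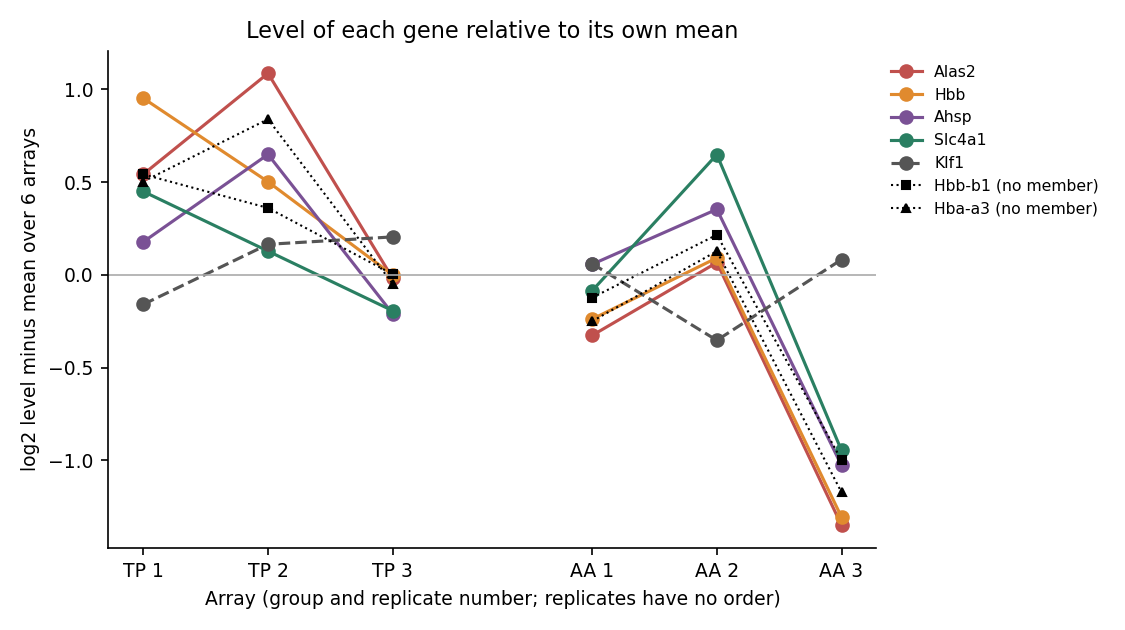
Log2 level of each measured member minus its mean over the 6 arrays, TP arrays left and AA arrays right, with the globin genes Hbb-b1 and Hba-a3 dotted; lines join arrays of a group and replicates have no order. Hba-a3 was picked for its likeness to the mean of the members. Alas2, Hbb, Ahsp and Slc4a1 drop to between -1.35 and -0.95 on AA 3, where Klf1 stands at 0.082.

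Other globins were examined from a list of 12 names, of which 5 were on the array under these symbols and 3 were tested. Hbb-b1, another adult beta globin, had log2 levels of 7.39, 7.21 and 6.85 on TP arrays 1 to 3, against 6.72, 7.06 and 5.85 on AA arrays 1 to 3. It averaged 7.15 ± 0.27 on the TP arrays and 6.55 ± 0.63 on the AA arrays (SD, n = 3 each). The difference was 0.60 (SE 0.34) (limma p of 0.124, adjusted p = 0.994), and AA 2 lay inside the TP range while AA 3 was again lowest. Hbg1, named for the gamma chain of fetal hemoglobin in human, had levels of -4.03, -2.83 and -2.90 on TP arrays 1 to 3, against -4.17, -4.95 and -4.42 on AA arrays 1 to 3. The groups did not overlap, and the difference was 1.25 (SE 0.38) (limma p of 0.0159, adjusted p = 0.994), from a dim probe above background on 5 of 6 arrays. The embryonic globin gene Hbe2 differed by -0.067 (SE 0.21), and Hbe1 and Hbz were above background on no array. The alpha globin gene Hba-a3 was reached by likeness of pattern, described further on, and not through this list.

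Heme synthesis genes other than Alas2 were split in direction. All 12 listed genes were tested: 5 were higher and 7 lower in TP, 0 had a limma p under 0.05 in either direction, and the median difference was -0.032. Alas1, which runs the first step of heme synthesis outside red cell precursors, differed by -0.17 (SE 0.34), with its highest level on AA 2 (5.70). Of the next enzymes, Alad differed by -0.088 (SE 0.19), Uros by -0.024 (SE 0.25) and Urod by 0.016 (SE 0.18), while a second Urod probe differed by -0.16 (SE 0.17). Of the last steps, Cpox differed by -0.046 (SE 0.18), Ppox by 0.058 (SE 0.33) and Fech, the ferrochelatase that inserts iron, by 0.060 (SE 0.24). The mitochondrial transport genes Tmem14c, Slc25a38 and Abcb10 differed by 0.21 (SE 0.24), 0.017 (SE 0.15) and -0.11 (SE 0.21). Glrx5, needed for iron-sulfur clusters, differed by -0.31 (SE 0.17) without overlap of the groups, at a limma p of 0.115 (adjusted p = 0.994). The enzymes among these genes are not specific to red cells.

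**Figure D4:**
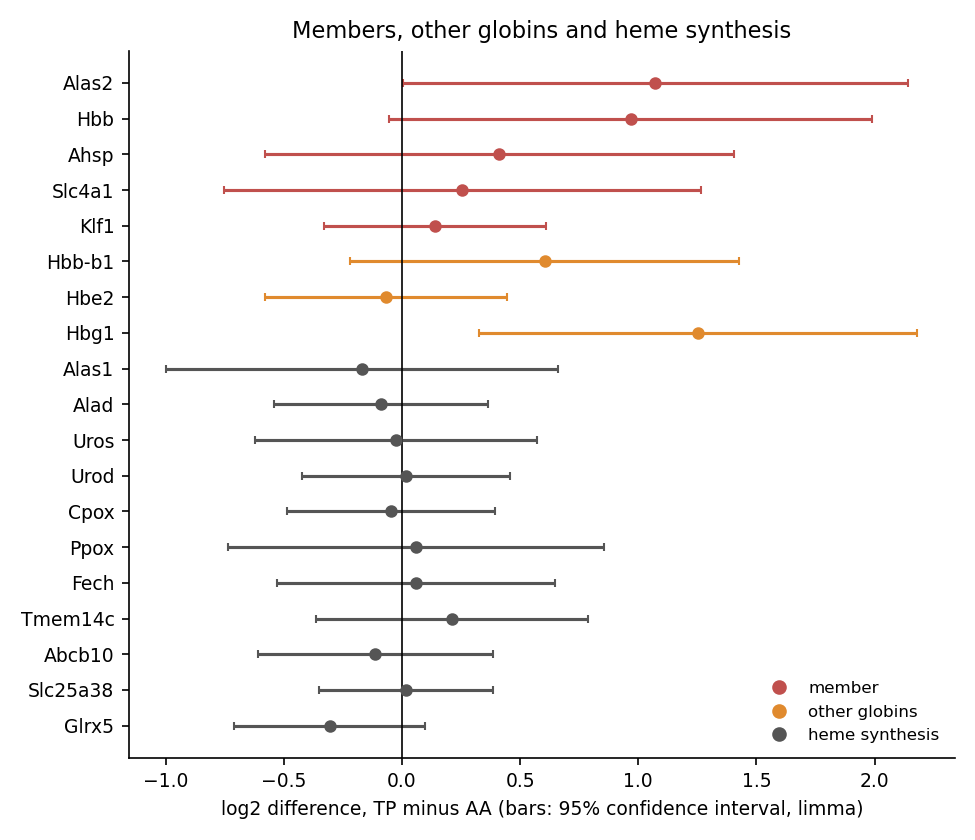
Log2 difference, TP minus AA, with its 95% limma interval for the 5 measured members (red), 3 other globins (orange) and 11 heme synthesis genes (grey). The Alas2 interval begins at 0.0047, that of Hbg1 lies above 0, and all other intervals span 0.

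Across all pathway lists, 77 genes other than the members were on the array and 64 were tested. Of these, 36 were higher and 28 lower in TP, with a median difference of 0.027. By limma, 4 had an unadjusted p under 0.05, all higher in TP (Add2, Hbg1, Kit and Rhd), and 0 had an adjusted p under 0.05. Of the 4, Add2 was not above background in AA and passed the filter through its TP arrays alone.

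Iron uptake genes were split, with 4 of 7 tested higher in TP, 0 at a limma p under 0.05 in either direction and a median of 0.030. Tfrc, the transferrin receptor, had log2 levels of 1.58, 0.89 and 1.61 on TP arrays 1 to 3, against 1.10, 3.67 and 1.24 on AA arrays 1 to 3, where AA 2, the array with the most muscle signal, stood far above the rest. Its difference was -0.64 (SE 0.70). The iron transporter Slc11a2 differed by 0.29 (SE 0.17), the mitochondrial iron carrier Slc25a28 by 0.26 (SE 0.21) and the ferritin light chain Ftl1 by -0.29 (SE 0.23) at its brightest probe. The 4 other Ftl1 probes were all higher in TP, by 0.074 to 0.30, so no direction is given for Ftl1. Tfr2 was above background on no array.

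Of the red cell membrane and cytoskeleton list, 16 genes were on the array, 11 were tested, 6 were higher and 5 lower in TP, and the median was 0.0048. Rhd, an Rh blood group protein and partner of Rhag, had log2 levels of -2.32, -1.94 and -2.20 on TP arrays 1 to 3, against -2.82, -2.63 and -3.37 on AA arrays 1 to 3. Every TP array was above every AA array, and the difference was 0.78 (SE 0.24) (limma p of 0.0150, adjusted p = 0.994). Add2, the beta adducin of the membrane skeleton, was well above background on all 3 TP arrays and on 0 AA arrays, so its level in AA is only a bound. In AA the higher of the probe's signal and the dimmest signal well above background on each array was taken. By this bound, the TP mean of Add2 was at least 1.95-fold higher. The groups overlapped, with AA 2 at a log2 level of -4.40, above TP 3 at -4.48. The limma fit used the levels without the bound (adjusted p = 0.994), and the probe passed the filter through its TP arrays alone. The second Add2 probe was above background on no array. Dmtn, or dematin, differed by 0.62 (SE 0.26) and Slc2a1, the glucose transporter of red cells and of many other cells, by 0.82 (SE 0.48). Ank1, the red cell ankyrin, was above background on no array, nor were Kel and Ermap.

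Erythroid transcription factors and receptors gave 6 higher and 4 lower of 10 tested, with a median of 0.065. Kit, the stem cell factor receptor of progenitors and of mast cells, differed by 0.74 (SE 0.29) (limma p of 0.0397, adjusted p = 0.994) without overlap, but its second probe differed by 0.10 (SE 0.26). Tal1, a partner of GATA1 in red cell precursors and also active in endothelium, differed by 0.28 (SE 0.20) at its brightest probe. Its 2 other tested probes, dimmer and above background on 4 and 3 arrays, were lower in TP, at -1.46 (SE 0.54, limma p of 0.0330, adjusted p = 0.994) and -0.15 (SE 0.26), so its probes disagree. Foxo3 differed by 0.17 (SE 0.20) and Cbfa2t3 by -0.11 (SE 0.15). Bcl11a was above background on no array. Red cell enzymes and maturation genes were even, 6 higher and 6 lower of 12 tested, with a median of 0.0084 and 0 at a limma p under 0.05. Car1, the red cell carbonic anhydrase, differed by -0.56 (SE 0.28), the opposite sign to Alas2. Ube2o differed by -0.46 (SE 0.27) and Nprl3, a neighbour of the alpha globin genes in mammals, by -0.18 (SE 0.13), both without overlap of the groups. A second Nprl3 probe went the other way, at 0.58 (SE 0.37), also without overlap, so the direction of Nprl3 is not settled. Bnip3l differed by 0.18 (SE 0.17). Pklr, Hemgn and Trim58 were above background on no array.

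Genes that clear heme and hemoglobin were higher in TP in 7 of 10, with a median of 0.16 and 0 at a limma p under 0.05 in either direction. Hp, which codes for the plasma protein haptoglobin that binds free hemoglobin, had log2 levels of 1.89, 1.77 and 2.02 on TP arrays 1 to 3, against 1.54, -0.16 and 1.77 on AA arrays 1 to 3. The groups did not overlap, AA 2 was far below the rest, and the difference was 0.84 (SE 0.51) (limma p of 0.145, adjusted p = 0.994). Hmox1, the heme oxygenase that opens the heme ring, differed by 0.51 (SE 0.34), and Lrp1, a receptor for heme bound to hemopexin, by 0.24 (SE 0.26).

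**Figure D5:**
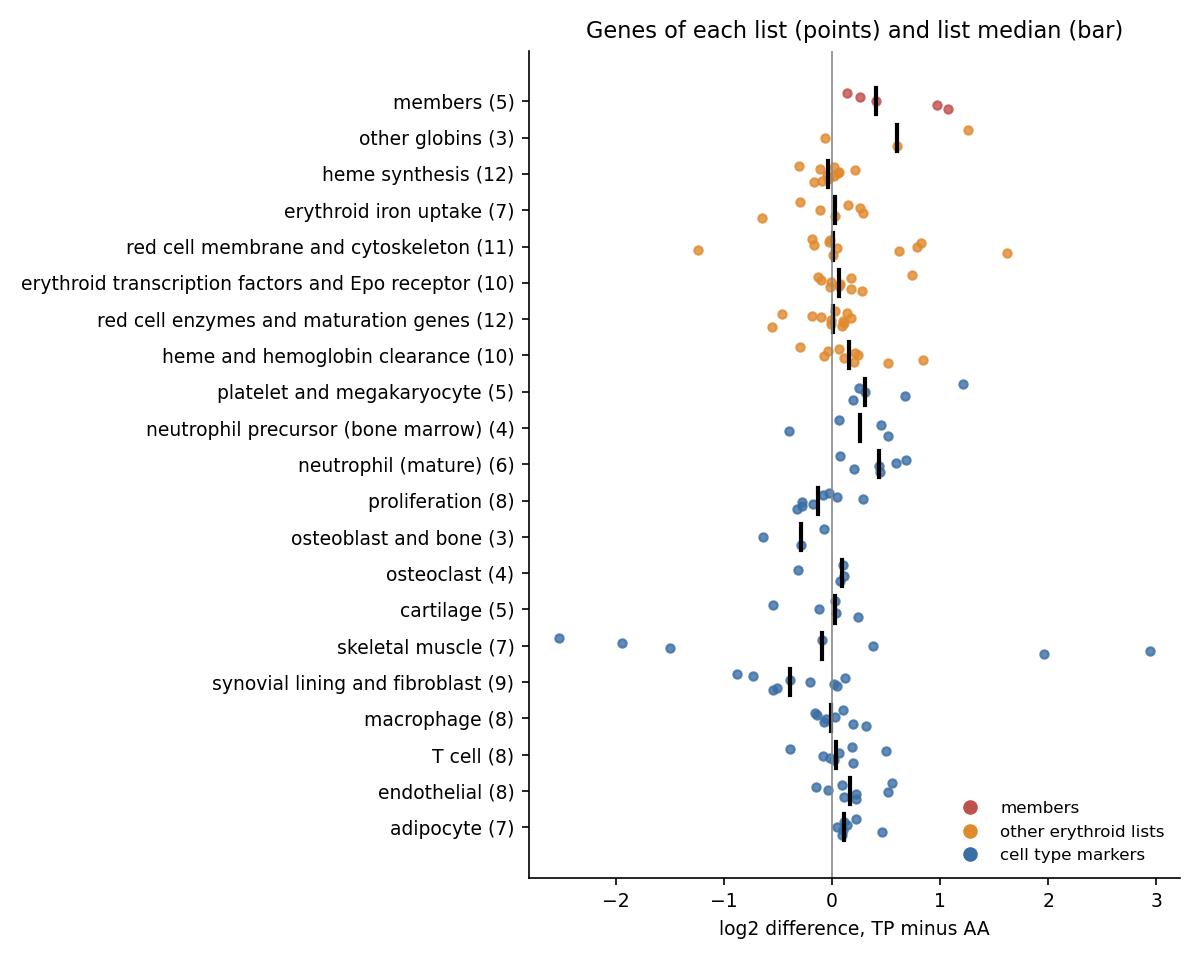
Log2 difference, TP minus AA, for each tested gene (points) and the median (bar) of the members (red), the other erythroid lists (orange) and the cell type marker lists (blue), with the number of tested genes in brackets. The members' median is 0.41 and that of the other globins, with 3 tested genes, is higher at 0.60. The medians of the remaining erythroid lists run from -0.032 to 0.16, and skeletal muscle has the widest spread of points.

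Markers of other blood and marrow cells were set beside the members. The members' summed level was 14.0, 12.3 and 7.81 on TP 1 to 3, against 6.77, 8.60 and 3.31 on AA 1 to 3, in multiples of the array's 75th percentile. This sum is mostly Hbb, with Alas2 next, and so repeats their levels. Platelet and megakaryocyte markers were higher in TP in 5 of 5 tested, with a median of 0.31, and 2 had a limma p under 0.05. These were Gp9, at 0.68 (SE 0.24), and Clec1b, at 1.21 (SE 0.43), with adjusted p of 0.994 for both. Their summed level was 53.7 to 81.99 on TP arrays and 33.3 to 72.7 on AA arrays, lowest on AA 2, the AA array highest in the members. This sum is mostly Pf4, at log2 levels of 6.10, 4.93 and 6.09 on AA 1 to 3. Within AA, Gp9, Gp1bb and Treml1 were also lowest on AA 2. Clec1b went the other way, with -4.22, -3.41 and -4.07 on AA 1 to 3, so the markers did not share 1 order. Ppbp and Gp5 were above background on no array.

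Mature neutrophil markers were higher in TP in 6 of 6 tested, with a median of 0.44 and 0 at a limma p under 0.05. Their summed levels were 7.45 to 19.1 on TP arrays and 7.98 to 9.21 on AA arrays. The 19.1, on TP 1, came mostly from Fcgr3a, at a log2 level of 3.74 there. Cxcr2 and Mmp8 were above background on no array. Marrow neutrophil precursor markers were dim, at 0.659 to 1.49 on TP arrays and 0.737 to 1.24 on AA arrays, with 3 of 4 higher in TP, and Elane, Ctsg, Ngp and Ms4a3 were above background on no array. Bone markers were lower in TP in 3 of 3 tested, with 0 at a limma p under 0.05, at 0.369 to 0.848 on TP arrays and 0.480 to 2.63 on AA arrays, and Ibsp, Sp7 and Phex were above background on no array. AA 3, the array lowest in the members, had the highest summed level of bone markers. Of the tested bone markers, Bglap was highest on AA 3 (log2 level of 1.15), but Runx2 was highest on AA 1 (-2.02) and Dmp1 on AA 2 (-2.11). Endothelial markers, which follow vessels, were higher in 6 of 8, with a median of 0.17 and summed levels of 37.9 to 100.7 on TP arrays and 48.5 to 53.4 on AA arrays. Macrophage, T cell, proliferation, osteoclast, cartilage and adipocyte markers had median differences between -0.13 and 0.11, and no B and plasma cell marker was bright enough to be tested. What part these cells, or those of the synovial lining list, have in the members' differences was not tested.

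By a rule of likeness, the 12 genes outside the lists whose levels most resembled the mean centred level of the 5 measured members were taken from 11633 genes, with Pearson r over the 6 arrays as the measure. The closest was Hba-a3, an alpha globin gene, at r of 0.990. Its log2 levels were 8.39, 8.73 and 7.84 on TP arrays 1 to 3, against 7.64, 8.02 and 6.72 on AA arrays 1 to 3. TP 2 and TP 1 were highest, AA 2 lay between them and TP 3, and AA 3 was lowest, the same array order as Alas2. Its means were 8.32 ± 0.45 on the TP arrays and 7.46 ± 0.67 on the AA arrays (SD, n = 3 each), and the difference of 0.86 (SE 0.39) had a limma p of 0.0683 (adjusted p = 0.994). Hba-a3 was picked on these same arrays for its likeness to the members. Its array order and its direction therefore come with the choice, and its p is not a separate test. This probe was named through its accession, and a name of alpha globin copies is uncertain, since they are nearly identical.

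After it came, with the r of each, Coil (0.988), C7h8orf82 (0.975), Ccdc86 (0.973), Vamp1 (0.963), Cox17 (0.959), Naf1 (0.955), Abcc1 (0.936), Rspo3 (0.932), Sepsecs (0.932) and Exosc2 (0.930). The differences of these 10 between groups ran from 0.085 for Cox17 to 0.71 for Rspo3. The member profile that these genes and Hba-a3 were chosen to follow is itself higher in TP, so this direction comes with the choice. A second probe of Abcc1 differed by -0.20 (SE 0.17). Over so few arrays and so many genes, high values of r occur among genes of any kind, and these are given as a description. Hba-a3 is the only globin among the 12, but the listed globins, Hbb-b1 among them, were left out of this search.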

How the data were processed

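Total RNA from 6 synovial samples was labelled with Cy3 and hybridised to Agilent rat oligonucleotide arrays of 1 colour, per the labels' protocols. The deposited scanner files hold linear spot intensity, background-subtracted by the authors' Feature Extraction run, version 10.7.3.1 per the file headers and 9.1 per the submitters' processing notes, with nothing normalized between arrays. A deposited table of log2 values for 167 probes holds 0 member probes and was not used for the members.

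After control spots and outliers were dropped, processed intensities were put on the log2 scale, scaled by subtracting the log2 75th percentile of the array's non-control spots, and averaged by probe. Probes well above background on at least 3 arrays, with at least 2 values per group, were tested in limma 3.58.1 (R 4.3.3; lmFit and eBayes, TP minus AA) with Benjamini-Hochberg adjustment over all tested probes and a threshold of 0.05. The brightest probe over all arrays stands for a gene. Of 41012 probes, a RefSeq accession named 18028, a symbol 3169 and a synonym 402, while 19413 carry the file's own name. The code was tested on simulated data.

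Members and lists were chosen with earlier results of these data known. Named genes were all members, up to 4 genes with the smallest p from each pathway list, all tested globin and heme synthesis genes, the brightest markers and the 12 genes most alike. Genes that moved on AA 2, single bone, muscle and platelet markers and genes above background on no array were named after their values were seen. Some genes taken by these rules are not reported here. The number of arrays limits the precision. Alternatives were another background correction, 2 other scalings, 2 other filters, slide and replicate blocks, slide 1 alone, array weights and leaving out each array.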

Additional observations from a re-analysis of the deposited data

How the results depend on the processing

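Over 9 other settings and the 6 arrays left out in turn, 0 members had a limma adjusted p under 0.05. The difference ran from 0.67 to 1.37 for Alas2, 0.56 to 1.44 for Hbb, 0.00040 to 0.69 for Ahsp, -0.15 to 0.64 for Slc4a1 and -0.089 to 0.25 for Klf1, with lowest adjusted p of 0.289 for Alas2 and 0.325 for Hbb under array weights. Signs turned for Slc4a1 without AA replicate 3 (-0.15) and for Klf1 with slide as a block (-0.089), on slide 1 alone (-0.089) and without AA replicate 2 (-0.0013); the cause was not tested. Members with an unadjusted p under 0.05 numbered 1 in the main analysis, 0 with the percentile over probes above background on all arrays, with no filter, with slide as a block and on slide 1 alone, and 2 with the replicate block (Alas2 and Hbb), which changed no adjusted call. Whether same-numbered arrays are pairs is not given by the labels. Over 25771 probes, deviations of same-numbered arrays correlated at -0.16, -0.13 and 0.00080, and no TP array correlated best with its own number. Correlations over all probes cannot settle pairing for the members. With the replicate block, Alas2 had an unadjusted limma p of 0.0028 and Hbb of 0.016 (adjusted p = 0.911 for both). At that setting, 1064 of all 25771 tested probes had an unadjusted limma p under 0.05. Leaving out 1 array gave 0 to 2 members at an unadjusted limma p under 0.05. There were 0 without AA 1, AA 3, TP 1 or TP 2, and 2 without AA 2 or TP 3. Of all 25776 tested probes, 863 did so without AA 2 and 619 without TP 3. The members' median difference ran from 0.22 to 0.69, the lowest without AA 3 and the highest without AA 2.

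Over all probes, 835 had an unadjusted p under 0.05, against 1758 with no filter, 1296 within slide 1, 4346 with array weights and 619 to 1658 with 1 array left out, the most without TP 2. Array weights gave 1 probe with an adjusted p under 0.05, where the main analysis had 0. Of the pathway genes, 2 to 8 had an unadjusted p under 0.05 over all settings, against 4, and 0 an adjusted one. The deposited log2 table lists no member probe, so that comparison was not run. Dim signal limits Klf1, and leaves Gata1, Rhag and Epb42 unmeasured.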

Other observations

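Several genes of the red cell lists were highest on AA 2, the array with the highest muscle signal, which Alas2 and Hbb were not. Tmod1, the tropomodulin that caps actin filaments in red cells and in muscle, had log2 levels of -0.15, -0.74 and -0.24 on TP arrays 1 to 3, against -0.39, 3.13 and -0.14 on AA arrays 1 to 3. Bpgm, which makes the regulator of oxygen release in red cells, had levels of -0.41, -0.46 and -0.65 on TP arrays 1 to 3, against -0.82, 0.26 and -0.94 on AA arrays 1 to 3, and Icam4, a red cell adhesion protein, -2.40, -3.39 and -2.43 on TP arrays 1 to 3, against -2.69, -1.84 and -3.19 on AA arrays 1 to 3. AA 2 was the highest array for all 3, by far for Tmod1, while Icam4 was also scattered over the other arrays. Alas2 stood at 0.63 on AA 2, inside the range of the TP arrays, and Hbb at 2.59. The member Slc4a1 was also highest on AA 2, at -1.95, with TP 1 next at -2.15.

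The muscle marker Ckm, a creatine kinase, had levels of 2.96, -2.15 and 1.94 on TP arrays 1 to 3, against -7.16, 8.39 and -7.32 on AA arrays 1 to 3, its probe being below background on AA 1 and AA 3, and Mb, or myoglobin, a heme protein of muscle, 4.31, -1.53 and 4.70 on TP arrays 1 to 3, against -1.35, 10.45 and -1.34 on AA arrays 1 to 3. Without AA 2 the difference of Alas2 was 1.37 and that of Hbb 1.26. AA 2 was the highest AA array for both genes, so leaving it out must raise the difference and says nothing about muscle. Bglap, the osteocalcin gene of bone, had levels of -3.12, -2.04 and -2.58 on TP arrays 1 to 3, against -3.09, -4.92 and 1.15 on AA arrays 1 to 3, with AA 3 highest and AA 2 below background. The part of muscle or bone in the erythroid levels was not tested.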
